A study of Argopecten irradians with 2 samples.

Results

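The enzymes that break glucose down to pyruvate (glycolysis), the enzymes that move pyruvate into the mitochondrion and turn it into acetyl-CoA or oxaloacetate, and the enzymes of the citrate cycle were collected from the gill transcripts of the bay scallop, *Argopecten irradians*. A member was a unigene, that is, a transcript sequence assembled without a genome, whose best Swiss-Prot hit carried one of a set of words. The words were hexokinase, phosphofructokinase, fructose-bisphosphate, glyceraldehyde-3-phosphate dehydrogenase, phosphoglycerate, enolase, pyruvate, citrate synthase, aconitate, isocitrate, oxoglutarate dehydrogenase, malate dehydrogenase, fumarate, phosphoenolpyruvate and opine. They matched 95 of the 60308 listed unigenes, and the 76 that reached 10 reads over both libraries were kept. The 19 left out had at most 7 reads each, and the kept member with the fewest reads, a ketohexokinase fragment (Unigene9530_All), had 6 in the control and 4 with PA. Of the 76 members, 55 belonged to 32 steps or subunits of the pathway and 21 carried one of the words but act elsewhere.

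Scallops bought at a fish market (age not given) were kept for 48 h with 80 mg/L palmitoleic acid (PA), a monounsaturated fatty acid, dissolved in dimethyl sulphoxide (DMSO), or for 48 h with the same volume of DMSO and 0 mg/L PA. DMSO was thus present in both groups. Each condition gave 1 gill library, which the sample labels call a pool of 18 individuals and the methods call 3 replicate pools of 6. No difference between the libraries therefore has a replicate check, the p-values behind the calls compare the 2 libraries and not the conditions, and all intervals cover counting error only.

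Glycolysis turns glucose into pyruvate in the cytosol. In the mitochondrion the pyruvate dehydrogenase complex turns pyruvate into acetyl-CoA, which citrate synthase joins to oxaloacetate, and the citrate cycle oxidises the citrate back to oxaloacetate. Citrate that leaves the mitochondrion supplies acetyl-CoA for fatty acid synthesis, and oxaloacetate can be drawn off to make phosphoenolpyruvate and glucose. Scallops are also known for ending glycolysis with opines, such as octopine, in place of lactate, which is best described in their adductor muscle.

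Reads are expected counts estimated with RSEM. They amounted to 10305482 for the control and 10414545 for the PA library. FPKM is a level in mapped fragments scaled to the length of the unigene and the depth of the library, and only this length-scaled level is compared between genes. A fold change is the ratio of FPKM in the PA library to that in the control library, given on the log2 scale with a 95% confidence interval (CI) from the split of the reads between the libraries. A unigene was called higher or lower when the test of Audic and Claverie, which asks whether 2 counts from 2 libraries differ beyond counting error, gave a Benjamini-Hochberg FDR of at most 0.001 over all listed unigenes and the change was at least 2-fold. The median log2 fold change of all 38391 unigenes with at least 10 reads was 0.21. Scaling by TMM lowered every log2 fold change by 0.25 and scaling by the median of ratios lowered it by 0.22, so values between 0 and 0.25 lie below 0 under TMM. Since gills were sequenced in bulk, fewer cells of a type and less RNA per cell cannot be told apart.

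The members were mostly long and well covered, with a median length of 2194.5 bp and a median of 462.5 reads, against 846 bp and 56.91 reads for all unigenes with at least 10 reads. The KEGG annotation named the same protein for 62 of the 76 members, another protein for 8 and none for 6. The best Nr hit came from the Pacific oyster *Crassostrea gigas* for 39 members and from the owl limpet *Lottia gigantea* for 17. The members were not independent, since 29 of them were contigs of 17 assembly clusters, where contigs share sequence. No sequence of these unigenes was used here.

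Of the 76 members, 19 were called between the libraries (25%), beside 24.0% of all unigenes with at least 10 reads, 30.3% of those with a Swiss-Prot hit and 36.3% of those that also had 233 to 914 reads, the quartiles of the members. The PA library was higher for 11 members (background 13.3%) and lower for 8 (background 10.7%). The share called was thus near the background of all unigenes and below that of unigenes with a Swiss-Prot hit and like depth. The median log2 fold change of the members was 0.29, beside 0.21 for all unigenes and 0.27 for those with a Swiss-Prot hit. Under TMM, 6 members were called higher and 15 lower (backgrounds 9.97% and 14.0%), and under the median of ratios 6 and 14 (backgrounds 10.4% and 13.7%). All 8 lower calls and 6 of the 11 higher calls held under both scalings. The exact test of edgeR needs an assumed coefficient of variation between pools, and it was run on plain library sizes, without TMM. It called 4 members higher and 5 lower at 0.2 (backgrounds 5.06% and 4.76%) and 1 and 1 at 0.4 (backgrounds 0.581% and 1.02%). With the contigs of each cluster summed, the members formed 64 clusters and single unigenes. Of these 64, 9 were called higher and 6 lower (backgrounds 10.9% and 7.79%).

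**Figure D1:**
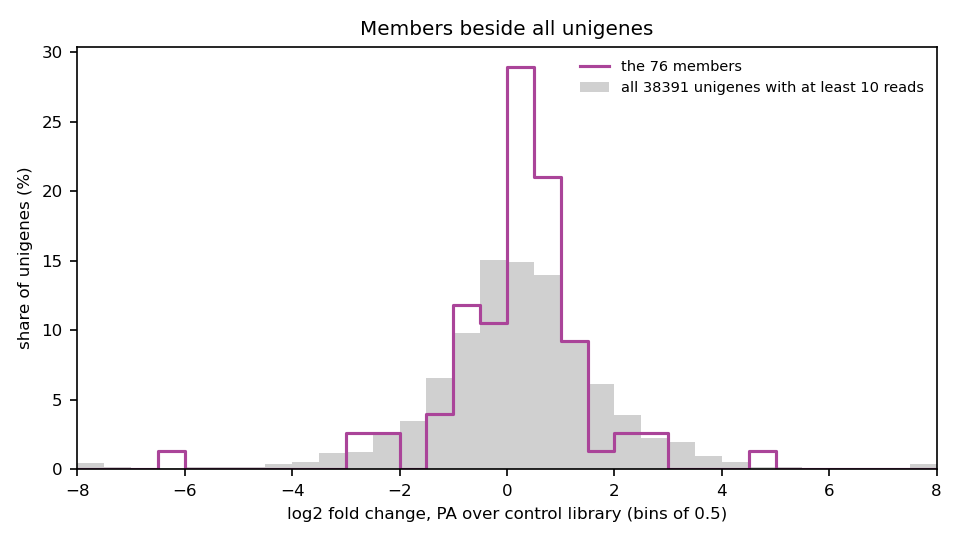
Share of unigenes (vertical axis, percent) in bins of 0.5 of the log2 fold change, PA over control library (horizontal axis), for the 76 members (line) and for all 38391 unigenes with at least 10 reads (grey bars). Of the members, 38 (50%) had a log2 fold change of 0 up to 1, beside 28.9% of all unigenes. The plot ends at -8 and 8, which leaves out 3.42% of all unigenes and 0 members.

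The 55 unigenes of the pathway together took 0.305% of the reads in the control and 0.307% with PA. The reads of each of the 32 steps were summed. On the plain scale the interval lay above 0 for 18 steps and below 0 for 8, and it included 0 for 6. Intervals were not counted under TMM, and some lower limits, such as 0.07 for the mitochondrial pyruvate carrier, were smaller than the TMM shift. On the plain scale 21 steps had a log2 fold change above 0 and 11 below, and under TMM 18 and 14. Glyceraldehyde-3-phosphate dehydrogenase counted as above 0 on the plain scale (95% CI 0.05 to 0.20) with Unigene4543_All, whose name is in doubt, summed in. The main unigene of that step, Unigene10059_All, lay below 0 by itself (95% CI -0.19 to -0.02).

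**Figure D2:**
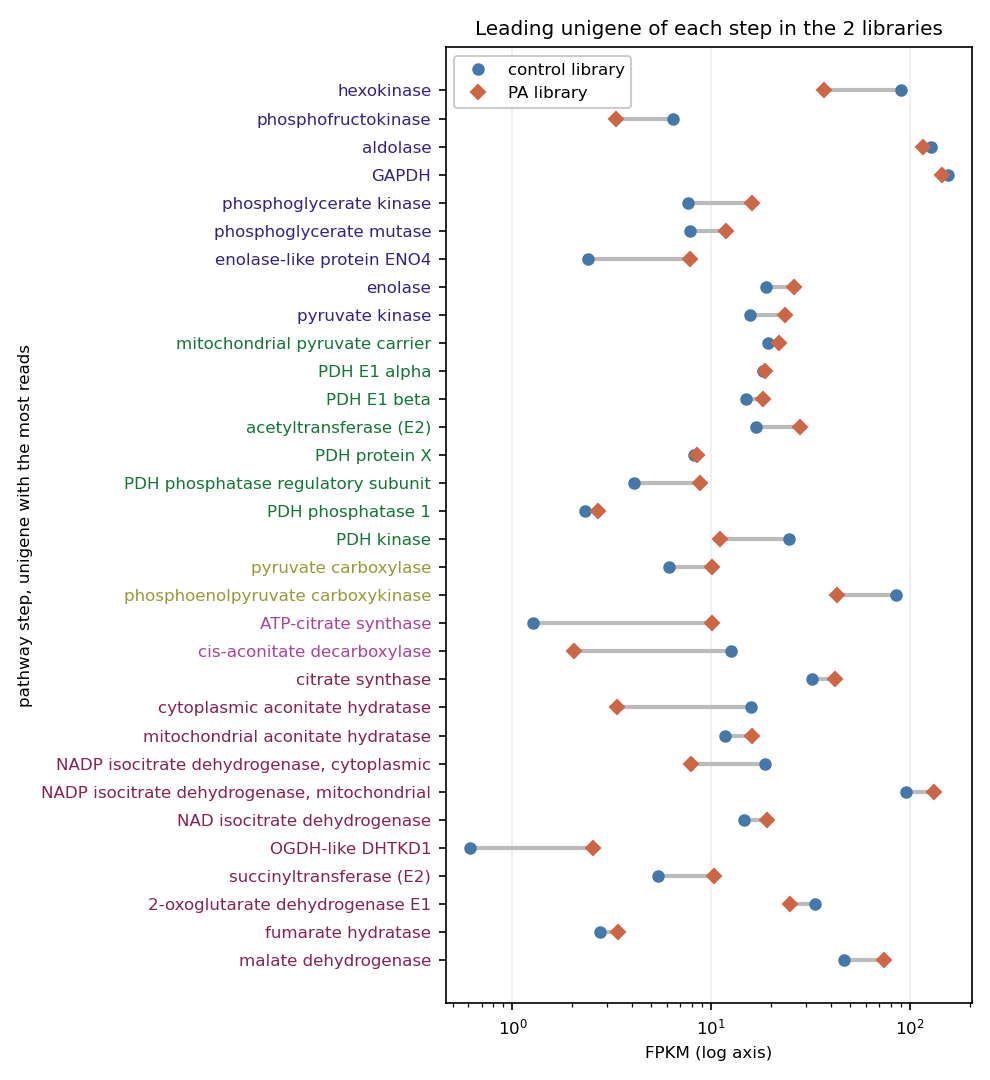
FPKM on a log axis (horizontal) of the unigene with the most reads in each pathway step (vertical, names coloured by group: glycolysis, pyruvate to acetyl-CoA, pyruvate and oxaloacetate, other uses of citrate, citrate cycle). Circles mark the control library and diamonds the PA library. The longest lines are those of ATP-citrate synthase (1.27 to 10.1), cis-aconitate decarboxylase (12.6 to 2.05), cytoplasmic aconitate hydratase (15.9 to 3.34) and the 2-oxoglutarate dehydrogenase-like DHTKD1, which rests on 26 reads.

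Within glycolysis, the main hexokinase was lower in the PA library, and phosphoglycerate kinase and an enolase-like protein were higher. Of the 18 kept members of glycolysis, 3 were called higher and 1 lower (22.2% called, beside 24.0% of all unigenes), with a median log2 fold change of 0.40. The share called was near the background. Hexokinase traps glucose in the cell as glucose 6-phosphate. The hexokinase-2 unigene (Unigene14536_All) had 2308 reads in the control and 949 with PA, or an FPKM of 90.4 and 36.8. It was called lower, with a log2 fold change of -1.30 (95% CI -1.41 to -1.19). The other hexokinase members, a pair whose best hits are hexokinase type 2 of *Drosophila*, lay the other way. Unigene529_All had 609 and 902 reads and a log2 fold change of 0.55, and Unigene15123_All had 488 and 617 reads and 0.32, neither called. The log2 ratio of this pair's reads to hexokinase-2 reads was 1.75 higher in the PA library than in the control (95% CI 1.60 to 1.91). No scaling of the libraries alters this difference. Hexokinase-2 was the most abundant hexokinase in both libraries, at 90.4 FPKM beside 9.24 and 9.88 in the control and 36.8 beside 13.6 and 12.4 with PA.

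Phosphofructokinase, which commits sugar phosphate to glycolysis, was represented by Unigene12954_All with 283 reads in the control and 148 with PA. Its log2 fold change of -0.95 (95% CI -1.25 to -0.66) was not called on the plain scale, but it was called lower under TMM (-1.19) and under the median of ratios (-1.17). Aldolase splits the resulting sugar bisphosphate, and its reads over 3 unigenes were 5795 and 5856, with a 95% CI of the log2 fold change from -0.05 to 0.05 (under TMM the value was -0.25). The most abundant aldolase contig, CL2300.Contig2_All, had an FPKM of 127 in the control and 116 with PA. Its cluster mate CL2300.Contig1_All had 563 and 809.6 reads (0.51).

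Glyceraldehyde-3-phosphate dehydrogenase is the oxidising step. Its main unigene, Unigene10059_All, was the single unigene of the pathway with the highest FPKM in both libraries. It stood at an FPKM of 156 in the control and 145 with PA, with 2378 and 2235 reads and a log2 fold change of -0.10 (95% CI -0.19 to -0.02), not called. A unigene with the same Swiss-Prot name, Unigene4543_All, had 240 and 670 reads and was called higher (1.47), but its Swiss-Prot hit had an E-value of only 3e-08 and KEGG named a zinc finger protein. For Unigene1445_All (154 and 149 reads, -0.06) the best Swiss-Prot and Nt hits were human. Human was also the best Nt hit of the short alpha-enolase unigene Unigene28668_All (7 reads in each library). Unigenes with a human best Nt hit at an E-value of up to 1e-100 numbered 137, with 0.0700% of the reads in the control and 0.0625% with PA.

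The later steps of glycolysis recover ATP and end in pyruvate. Phosphoglycerate kinase, its first ATP-forming enzyme (Unigene12320_All), had 182 reads in the control and 386 with PA, or an FPKM of 7.65 and 16.1. It was called higher on the plain scale (1.07, 95% CI 0.81 to 1.33) but under TMM (0.83) and the median of ratios (0.85) it was not called. Its best Swiss-Prot and Nr hits were both from the nematode *Caenorhabditis elegans*, and whether it came from the scallop was not tested. The phosphoglycerate mutase unigenes, which shift the phosphate, had log2 fold changes of 0.60 (126 and 193 reads) and 0.24 (135 and 161 reads). Enolase itself (Unigene31777_All) had 371 and 520 reads and a log2 fold change of 0.47 (95% CI 0.28 to 0.67). None of these was called.

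The enolase-like protein ENO4, which in mice is needed for normal sperm, was the member of this group with the largest log2 fold change. Its contig CL5106.Contig1_All had 58 reads in the control and 190.1 with PA, an FPKM of 2.41 and 7.81, and was called higher (1.70, 95% CI 1.27 to 2.15). Its level stayed below that of enolase in both libraries. Pyruvate kinase, which makes ATP and pyruvate, had 2 contigs of 1 cluster with close values. CL2223.Contig3_All had 722 and 1096 reads (0.59) and CL2223.Contig1_All had 622 and 987 reads (0.65). Their summed log2 fold change was 0.62 (95% CI 0.52 to 0.72), or 0.37 under TMM, and neither reached the 2-fold limit.

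**Figure D3:**
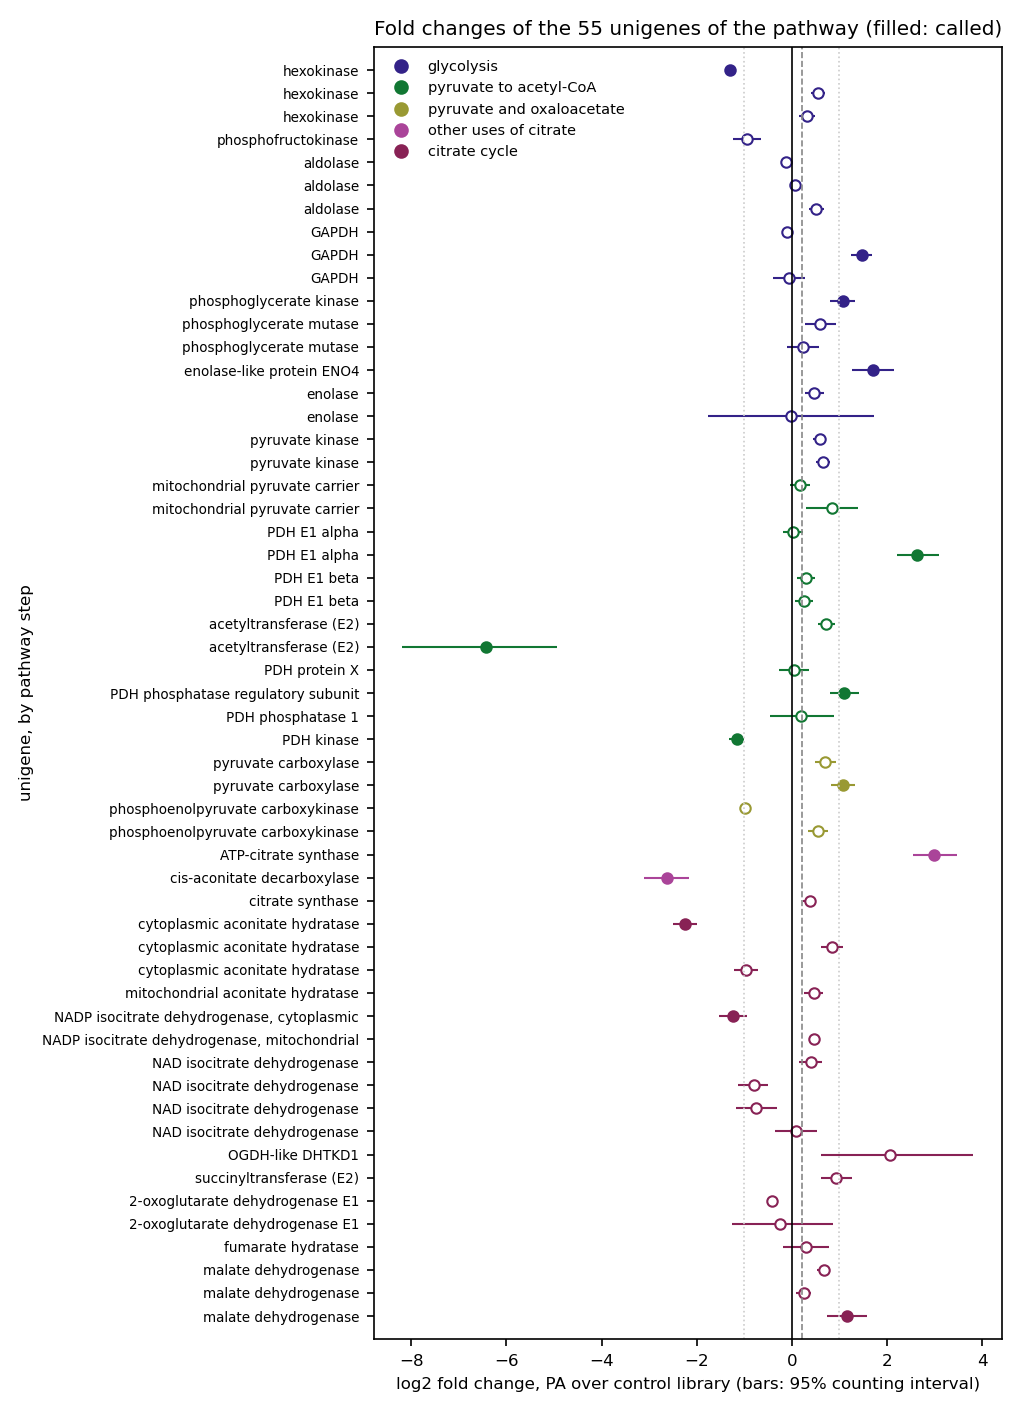
Log2 fold change, PA over control library (horizontal axis), of the 55 kept unigenes of the pathway, one row each, named by step and coloured by group. Bars are 95% counting intervals, filled points are called and open points are not. The solid line marks 0, the dashed line the median of all unigenes (0.21) and the dotted lines the 2-fold limit. Among the 19 unigenes grouped with the citrate cycle, cytoplasmic forms included, 1 was called higher and 2 lower (15.8%, beside 24.0% of all unigenes).

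Pyruvate enters the mitochondrion through a carrier of 2 kinds of subunit. Mitochondrial pyruvate carrier 2 (Unigene3842_All) had 361 and 411 reads (0.17, not above 0 under TMM) and carrier 1 (Unigene19112_All) had 45 and 81 reads (0.83, 95% CI 0.29 to 1.39), neither called. Of the 12 members of this group, which runs from the carrier to the pyruvate dehydrogenase complex and its regulators, 2 were called higher and 2 lower (33.3%, beside 24.0% of all unigenes). The median log2 fold change was 0.23.

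In the complex, 1 contig of the E1 alpha subunit was called higher and 1 contig of E2 lower, and neither call held for the summed cluster. For the alpha subunit of E1, the decarboxylase, CL2202.Contig1_All had 374 reads in the control and 384 with PA (0.02), whereas CL2202.Contig2_All had 51.3 and 322 reads and was called higher (2.64, 95% CI 2.21 to 3.10). Summed, the cluster had 425 and 706 reads and a log2 fold change of 0.72 (95% CI 0.54 to 0.89), which was not called. The beta subunit of E1, on the contigs of cluster CL140, had 822 and 1002 reads (0.27, or 0.03 under TMM).

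The E2 subunit, an acetyltransferase that carries the acetyl group on a lipoyl arm, gave the largest fall among the members. CL923.Contig1_All had 313 reads in the control and 3.51 with PA, with an FPKM of 12.1 and 0.14, and was called lower (-6.44, 95% CI -8.19 to -4.93). Its mate CL923.Contig2_All had 421 and 705 reads (0.73). The summed cluster had 734 and 709 reads and a log2 fold change of -0.07 (95% CI -0.22 to 0.09). Total E2 reads thus lay within counting error of each other on the plain scale, while under TMM the sum was -0.31. Protein X, which holds E3 on the complex, had 166 and 174 reads (0.05, or -0.19 under TMM).

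**Figure D4:**
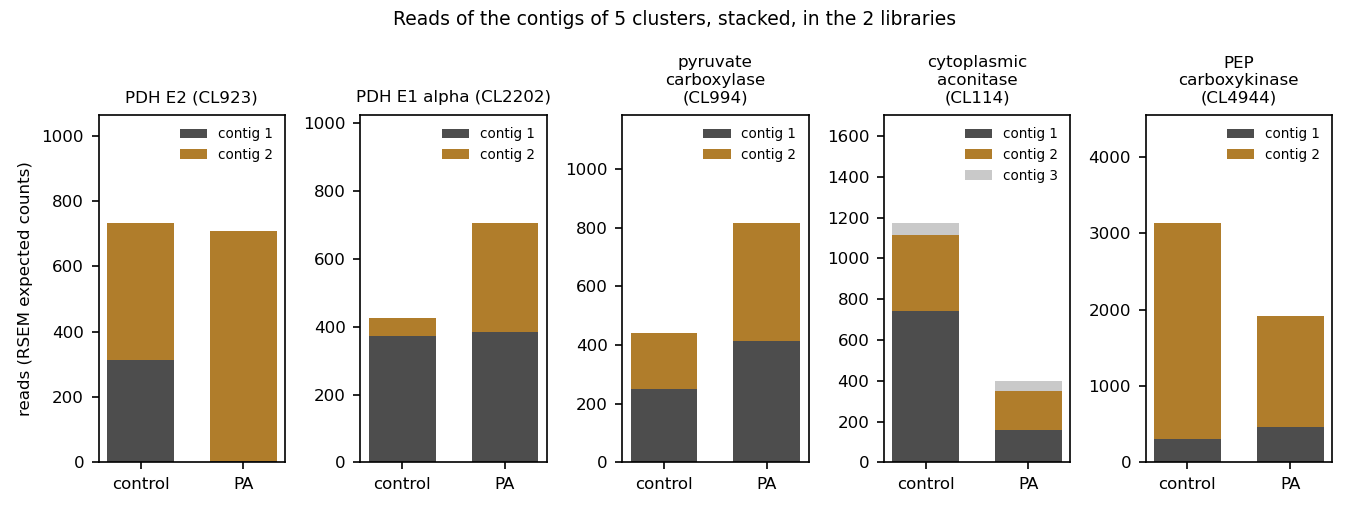
Reads (RSEM expected counts, vertical axis from 0) of the contigs of 5 assembly clusters, stacked, in the control and PA libraries. For E2 of pyruvate dehydrogenase (CL923) the total is 734 and 709 while contig 1 goes from 313 to 3.51. For cytoplasmic aconitate hydratase (CL114) contigs 1 and 2 are both shorter in the PA library.

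The regulators of the complex moved in opposite directions. Pyruvate dehydrogenase kinase, which switches the complex off by phosphorylation, had 1059 reads in the control and 479 with PA (Unigene17253_All), or an FPKM of 24.6 and 11.0. It was called lower (-1.16, 95% CI -1.32 to -1.0). The regulatory subunit of the phosphatase that reverses this (Unigene20938_All) had 133 and 288 reads, an FPKM of 4.11 and 8.80, and was called higher on the plain scale (1.10, 95% CI 0.80 to 1.41) but not under TMM (0.85). In mammals this subunit restrains the phosphatase. The catalytic phosphatase 1 (Unigene15207_All) had only 37 and 43 reads (0.20, 95% CI -0.47 to 0.88). The log2 ratio of E1 beta reads to kinase reads was 1.43 higher in the PA library than in the control (95% CI 1.23 to 1.64).

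Pyruvate carboxylase fills the citrate cycle with oxaloacetate, and phosphoenolpyruvate carboxykinase can draw oxaloacetate off. The direction in which the carboxykinase runs in these gills was not measured. These enzymes lay on opposite sides. The carboxylase contig CL994.Contig2_All had 189 reads in the control and 403 with PA and was called higher (1.08, 95% CI 0.82 to 1.33), which was lost under TMM (0.83). Its mate CL994.Contig1_All had 251 and 414 reads (0.71), and the sum of both was 0.88, not called. The main carboxykinase contig, CL4944.Contig2_All, had 2824 and 1447 reads, or an FPKM of 85.2 and 43.2. Its log2 fold change of -0.98 (95% CI -1.07 to -0.89) fell just short of the 2-fold limit, and it was called lower under TMM (-1.22) and under the median of ratios (-1.20). The mate CL4944.Contig1_All had 313 and 465 reads (0.56), and the sum was -0.73 (95% CI -0.81 to -0.65). The log2 ratio of carboxylase reads to carboxykinase reads was 1.61 higher in the PA library than in the control (95% CI 1.42 to 1.79).

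Among the pathway enzymes with a single unigene, those that use citrate and aconitate outside the cycle had the largest rise and the largest fall. ATP-citrate synthase, which splits cytosolic citrate into oxaloacetate and the acetyl-CoA for fatty acid synthesis, had 47 reads in the control and 379 with PA (Unigene9011_All). Its FPKM was 1.27 and 10.1, and it was called higher (2.99, 95% CI 2.56 to 3.47). The log2 ratio of its reads to citrate synthase reads was 2.62 higher in the PA library than in the control (95% CI 2.17 to 3.08). Cis-aconitate decarboxylase, which in mammalian macrophages makes itaconate, had 279 and 46 reads (Unigene19700_All), an FPKM of 12.6 and 2.05, and was called lower (-2.62, 95% CI -3.10 to -2.16). Both calls held under either scaling and in edgeR's exact test at a coefficient of variation assumed to be 0.2, and neither held at 0.4.

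The 19 members grouped with the citrate cycle included cytoplasmic forms of its enzymes, which lie outside the cycle in the mitochondrion. Both members called lower carried a cytoplasmic name, and KEGG gave the member called higher a cytoplasmic name. Of the 14 kept members of the cycle with a mitochondrial name, 0 were called by the test of Audic and Claverie (24.0% of all unigenes were). Of the 14, 7 met the FDR of 0.001 and missed only the 2-fold limit, and 11 had an unadjusted p under 0.05 (8 of them above 0 and 3 below). Likewise 0 were called by the edgeR exact test at an assumed coefficient of 0.2. Their median log2 fold change was 0.34, or 0.09 under TMM. Under TMM 2 of them were called lower, and under the median of ratios 1. Whether calls were rarer among mitochondrial names was not tested. Of these 14, the entry step, citrate synthase (Unigene10190_All), had 819 and 1071 reads, or an FPKM of 32.3 and 41.9 (0.37, 95% CI 0.24 to 0.50).

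Aconitate hydratase turns citrate into isocitrate, and its cytoplasmic form serves in mammals also as an iron-regulated RNA-binding protein. CL114.Contig1_All, of the cytoplasmic form, had 744 reads in the control and 158 with PA, an FPKM of 15.9 and 3.34, and was called lower (-2.25, 95% CI -2.51 to -2.0). CL114.Contig2_All had 369.6 and 192 reads (-0.96), and the summed cluster was called lower too (-1.57, 95% CI -1.74 to -1.40). A separate cytoplasmic unigene, Unigene10229_All, lay the other way with 245 and 445 reads (0.85, 95% CI 0.62 to 1.08), not called. The mitochondrial form (Unigene10247_All) had 355 and 492 reads (0.46, 95% CI 0.26 to 0.66), not called. All 3 cytoplasmic members were summed. The log2 ratio of mitochondrial reads to this sum was 1.24 higher in the PA library than in the control (95% CI 1.01 to 1.48).

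Isocitrate dehydrogenase comes in NADP-dependent forms, which supply NADPH, and in the NAD-dependent form of the cycle. The cytoplasmic NADP form (Unigene16498_All) had 335 reads in the control and 144 with PA, an FPKM of 18.7 and 7.95, and was called lower (-1.23, 95% CI -1.53 to -0.95). The mitochondrial NADP form (Unigene3843_All) had the highest FPKM of the members grouped with the citrate cycle in both libraries, at 95.6 and 132. Its 1779 and 2479 reads gave a log2 fold change of 0.46 (95% CI 0.38 to 0.55), not called. The log2 ratio of mitochondrial to cytoplasmic reads was thus 1.70 higher in the PA library than in the control (95% CI 1.40 to 1.99).

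The subunits of the NAD form did not lie on one side. The gamma subunit (Unigene16701_All) had 242 and 321 reads (0.39), the alpha subunit (Unigene14404_All) had 83 and 89 (0.09, or below 0 under TMM), and the beta contigs CL1057.Contig2_All and CL1057.Contig1_All had 228 and 131 reads (-0.81) and 123 and 73.5 reads (-0.76). None was called on the plain scale. CL1057.Contig2_All was called lower under TMM and under the median of ratios, and CL1057.Contig1_All under TMM only.

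The 2-oxoglutarate dehydrogenase complex follows. Its E1 contig CL1123.Contig2_All had 2249.6 reads in the control and 1711 with PA, an FPKM of 33.2 and 24.97 and a log2 fold change of -0.41 (95% CI -0.50 to -0.32), not called. Its E2, the succinyltransferase (Unigene12408_All), had 120 and 231 reads and an FPKM of 5.42 and 10.3 (0.93, 95% CI 0.61 to 1.26), just under the limit and also not called. The related DHTKD1, which acts on 2-oxoadipate in mammals, had 5 and 21 reads (Unigene46547_All, 2.06, 95% CI 0.61 to 3.82).

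At the end of the cycle, fumarate hydratase (Unigene19671_All) had 67 and 83 reads (0.30, 95% CI -0.19 to 0.78). Mitochondrial malate dehydrogenase (Unigene20979_All), which closes the cycle, had 755 and 1212 reads and an FPKM of 46.6 and 74.0 (0.67, 95% CI 0.54 to 0.80), not called. Unigene13120_All, a malate dehydrogenase that Swiss-Prot named mitochondrial and KEGG cytoplasmic, had 642 and 772 reads (0.25). Unigene15264_All, a malate dehydrogenase that KEGG named cytoplasmic, had 73 and 164 reads and was called higher on the plain scale (1.15, 95% CI 0.75 to 1.57) but not under TMM (0.91).

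Opine dehydrogenases were all but undetected in these gills. The 4 unigenes whose best hit was octopine dehydrogenase had 2 reads in the control and 13 with PA in all, and 0 of the 4 reached 10 reads.

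Other genes of glycolysis, of its pyruvate branches and of the citrate cycle, taken from a list of Swiss-Prot words, included 23 unigenes with at least 10 reads, of which 3 were called higher and 3 lower (26.1%, beside 24.0% of all unigenes), or 1 and 4 under TMM. Their median log2 fold change was 0.29. The same list held 19 unigenes of neighbouring pathways, of which 7 were called higher and 3 lower (52.6%). The whole list of 42 thus had 10 higher and 6 lower calls. Glucose-6-phosphate isomerase, the step between hexokinase and phosphofructokinase (Unigene7143_All), had 72 reads in the control and 261 with PA and was called higher (1.84, 95% CI 1.46 to 2.24). Triosephosphate isomerase, the step after aldolase, had 335 and 309 reads (-0.13) and 30 and 27 reads (-0.17). The 3 unigenes of 6-phosphofructo-2-kinase, which makes the activator of phosphofructokinase, lay between -0.83 and -0.70, with 0 called on the plain scale (3 at an unadjusted p under 0.05, 0 in edgeR at an assumed coefficient of 0.2) and 1 called lower under TMM. Lactate dehydrogenase was found only as the D-lactate form, with 8 and 25 reads on its main unigene.

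Within the mitochondrion, dihydrolipoyl dehydrogenase, the E3 that both complexes share, had 501 and 632 reads (Unigene18851_All, 0.32). Among 7 unigenes of succinate dehydrogenase, 1 was called higher (CL3449.Contig1_All, 133 and 298 reads, 1.16), a call that was lost under TMM. The beta subunit of succinyl-CoA ligase had its reads on different contigs in the 2 libraries, since CL2290.Contig1_All had 328 reads in the control and 0 with PA while CL2290.Contig2_All had 395 and 934, and the cluster sum gave a log2 fold change of 0.35. The NADP-dependent malic enzymes, which turn malate into pyruvate and supply NADPH, were both called lower. Unigene9029_All had 574 and 225 reads (-1.37, 95% CI -1.60 to -1.14) and Unigene23791_All had 125 and 17 reads (-2.89, 95% CI -3.72 to -2.16).

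The 21 members outside the pathway included 3 called higher and 2 lower (23.8%, beside 24.0% of all unigenes), with a median log2 fold change of 0.25. Serine--pyruvate aminotransferase, which in vertebrates detoxifies glyoxylate, had the largest rise of all members. Unigene32605_All had 10 reads in the control and 273 with PA, an FPKM of 0.49 and 13.1 and a log2 fold change of 4.74 (95% CI 3.85 to 5.83). Glyoxylate reductase/hydroxypyruvate reductase, which acts on the same metabolite, had 47 and 251 reads (Unigene12252_All) and was called higher (2.40, 95% CI 1.95 to 2.88). Hydroxypyruvate isomerase (Unigene439_All) had 27 and 64 reads and was called higher on the plain scale (1.23, 95% CI 0.56 to 1.94), but under TMM (0.99) it was not.

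The word pyruvate in 4-hydroxyphenylpyruvate matched its dioxygenase, an enzyme of tyrosine breakdown, and contigs that Swiss-Prot named only dioxygenase-like. Whether the dioxygenase-like contigs act in tyrosine breakdown was not tested. CL669.Contig1_All, like 4-hydroxyphenylpyruvate dioxygenase, had 597 reads in the control and 91 with PA and was called lower (-2.73, 95% CI -3.06 to -2.41). Its mate CL669.Contig4_All had 167 and 40 reads and was called lower as well (-2.07), as was the whole cluster (-2.53, 95% CI -2.78 to -2.28). The dioxygenase proper (Unigene2892_All) had 179 and 239 reads (0.40), not called. The word opine brought in 8 kept copines, calcium-dependent membrane-binding proteins, of which 0 were called on the plain scale (4 had an unadjusted p under 0.05, and 0 were called in edgeR at 0.2) and 1, CL1640.Contig2_All (446 and 239 reads, -0.91), was called lower under TMM. Of the 4 members named enolase-phosphatase E1, an enzyme of methionine salvage, KEGG gave the same name to 2.

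Lists of markers of gill cells were set beside these enzymes. Of 96 unigenes of cilia, the beating structures of the gill epithelium, 21 were called higher and 2 lower (24.0% in all). Over all unigenes 13.3% were called higher and 10.7% lower (24.0% in all). The log2 fold change was above 0 for 86 of the cilia unigenes and below 0 for 10, with a median of 1.2. Over all unigenes with at least 10 reads, 21542 lay above 0 and 16832 below. The parts of the cilia list differed. Its 63 axonemal dynein unigenes had a median of 1.61 on a median of 19 reads. Its 21 intraflagellar transport unigenes had a median of 0.45, with 2 called higher and 2 lower. The summed FPKM of the cilia unigenes was 562 in the control and 1026 with PA. For 43 muscle unigenes 8 were called higher and 5 lower (30.2%), with a summed FPKM of 1456 and 1435. Twitchin, of which 0 unigenes reached 10 reads, stood at 0.00 FPKM in the control library, and it was the only marker name at 0 in either library. The 168 mucin unigenes had 51 higher and 29 lower calls (47.6%) and a summed FPKM of 2396 and 2137. Big defensin, the blood cell marker found, had a summed FPKM of 282 and 296 over 2 contigs of 1 cluster. CL1325.Contig1_All had 85.05 and 725 reads and was called higher (3.08), while CL1325.Contig2_All had 1558 and 1041 reads (-0.59), not called. The part of these cells in the results above was not tested.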

How the data were processed

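Gills of control and PA-exposed bay scallops gave 1 RNA-seq library each, assigned from the sample titles. The authors assembled the reads with Trinity, merged transcripts into unigenes with TGICL, mapped reads with Bowtie and estimated expression with RSEM. The deposited table of each library gives an expected count and an FPKM per unigene, and a series table gives length and annotation. That table also holds the authors' own comparison (fold changes, p-values, FDR) and 2 per-sample FPKM columns, which were not used.

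Expected counts, rounded to whole numbers, entered the two-sided test of Audic and Claverie over all 60308 unigenes. Fold changes came from FPKM, with 0.01 in place of 0. Intervals of single fold changes are Clopper-Pearson, and those of differences between enzymes are normal approximations of the log odds ratio of the reads. The depth was 10305482 and 10414545 reads. With 1 library per group, edgeR could be run only with an assumed coefficient of variation (0.2 or 0.4). Its test used plain library sizes, without the TMM factors. The calling was run on simulated counts that held counting error only, so the simulation could not show how variation between pools affects the calls.

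The members and lists were chosen with earlier results of these data known. Named unigenes are the one with the most reads in each step, every called member with at least 50 reads, and the cluster mates of these; further members and the pairs of enzymes compared were added after their values were seen. Alternatives were TMM, median of ratios, other read minimums, a pseudocount of 1 FPKM, summed clusters, a 4-fold limit, members without non-animal hits and, added after seeing the data, members of a step without conflicting or human hits. A RefSeq gene table was not used here. Python 3.11.15, numpy 2.4.6, scipy 1.17.1, pandas 2.3.3, matplotlib 3.10.9, R 4.3.3 and edgeR 4.0.16 were used.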

Additional observations from a re-analysis of the deposited data

How the results depend on the processing

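The counts of members called higher and lower were 11 and 8. They became 6 and 15 under TMM, 6 and 14 under the median of ratios, 4 and 5 with edgeR at an assumed coefficient of variation of 0.2 and 1 and 1 at 0.4. At 0.4 the called members were serine--pyruvate aminotransferase (higher) and CL923.Contig1_All of the pyruvate dehydrogenase E2 (lower). A limit of 4-fold left 4 higher and 5 lower. A pseudocount of 1 FPKM left 6 higher. The 52 members of a step without conflicting or human hits, an alternative added after the data were seen, gave 7 higher and 6 lower. All 55 members of a step gave 8 higher and 6 lower. The median log2 fold change of 0.29 became 0.0499 under TMM. The part of the library composition in these shifts was not tested. A minimum of 0 or 50 reads and leaving out non-animal best hits moved no count by over 1.5 times. Summed clusters gave 9 higher and 6 lower among 64 clusters and single unigenes. For the list of 42 other genes, 8 to 9 higher and 8 lower under the scalings stood beside 10 and 6. Among the named members, 5 calls were lost and 3 gained under TMM, and the same numbers under the median of ratios. Summing clusters ended 3 calls (pyruvate dehydrogenase E1 alpha and E2, pyruvate carboxylase) and added 1 (CL114.Contig2_All). No paired analysis was possible because each group had 1 library, and for the same reason no library could be left out. Counting error limits the members with the fewest reads most, such as DHTKD1 with 26 reads.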

Other observations

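Neighbouring sugar pathways were described by the same list of Swiss-Prot words. In the pentose phosphate pathway, 1 oxidative enzyme was called lower. The non-oxidative enzymes on the list, transketolase and transaldolase, were called higher. 6-Phosphogluconate dehydrogenase, which yields NADPH, had 1792 reads in the control and 892 with PA (Unigene14489_All) and was called lower (log2 fold change -1.02, 95% CI -1.14 to -0.90). The 3 unigenes of glucose-6-phosphate dehydrogenase, which also yields NADPH, lay between -1.02 and 0.25, with 0 called on the plain scale and 1 called lower under TMM. Of the non-oxidative enzymes, transketolase had 158 and 401 reads (Unigene4715_All) and was called higher (1.33, 95% CI 1.06 to 1.60). The transaldolase cluster CL3857 gave a log2 fold change of 1.95, and both of its contigs, CL3857.Contig1_All with 126 and 360.2 reads and CL3857.Contig2_All with 52.0 and 333 reads, were called higher. All of these calls were also made under TMM.

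Among the transaminases that tie the citrate cycle to amino acids, mitochondrial aspartate aminotransferase had 183 and 454 reads (Unigene13279_All) and was called higher (1.30, 95% CI 1.04 to 1.55). The cytoplasmic contigs of cluster CL1353 were called in opposite directions, with 547 and 118 reads on CL1353.Contig1_All and 259.6 and 629 on CL1353.Contig2_All, and their sum gave a log2 fold change of -0.13. In glycogen metabolism, the main glycogen phosphorylase unigene (Unigene16618_All) had 270.2 and 243 reads (-0.17), not called. The other kept unigene of this enzyme was called higher (2.77), also under TMM and the median of ratios. Both together had 275 and 276 reads. Glycogen synthase had at most 17 reads per library on each kept unigene. Phosphoglucomutase-2 was called lower (Unigene18858_All, 200 and 78 reads, -1.37) and phosphoglucomutase-1 higher (Unigene5354_All, 5 and 62 reads, 3.61).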
